A study of Mus musculus with 9 samples.

Results

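The cytochrome P450 genes of the mouse were followed in whole corneas of 3 groups. A gene counted as a member if a probe set on the array was annotated to exactly 1 symbol made of Cyp, a number and a letter, and the probe set with the highest mean over the 9 arrays stood for a gene that had several. This gave 97 genes from 101 probe sets, out of 22180 genes measured on 23521 probe sets with exactly 1 symbol. Among them, 4 carry pseudogene symbols. The name was read with 1 or more digits. A reading with a single digit holds 83 of the genes and leaves out the families with numbers above 9, such as Cyp24a1 and Cyp26b1.

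The mutant group carried Dstncorn1, an allele of the gene for destrin, which severs and depolymerises actin filaments. The rescued group carried the same allele and, by the series title, had lost Srf, the gene for serum response factor, from the corneal epithelium by genetic ablation. The remaining group was wild type (WT). Mice of all groups, WT included, were injected with doxycycline from day 28 to day 58 after birth and were 58 days old, on a mixed background of FVB, Swiss Black, 129, C57BL6/J and A.BY. Each group had 3 biological replicates, each a pool of 10 corneas from 5 mice and hybridised to 1 array. The labels name neither the promoter that drove the ablation of Srf nor whether WT and mutant mice carried the same driver.

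Cytochrome P450 enzymes are haem proteins that insert an oxygen atom into lipids, steroids, vitamins and foreign compounds, with electrons passed on by a reductase in the endoplasmic reticulum or by ferredoxin in mitochondria. Families 1 to 3 are best known for drugs and foreign compounds and for some fatty acids, family 4 for hydroxylating fatty acids at the far end of the chain, and the higher-numbered families for sterols, steroid hormones, vitamin D and retinoic acid. In surface epithelia such as skin and cornea, P450 products of arachidonic acid act as local signals, and other P450 enzymes build barrier lipids or clear vitamin A and vitamin D signals.

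Values are log2 intensities as deposited, so a difference of 1 is a factor of 2. Different probe sets respond differently to the same amount of RNA, so values are compared between arrays for 1 gene and not between genes. The median of all 41345 probe sets, 6.77, served as a mark for low signal. A fold is a lower bound ("at least") where 1 group of a pair fell below that mark, and none is given where both did. A gene was called higher or lower at an adjusted p under 0.05 (limma, Benjamini-Hochberg over all 22180 genes).

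The groups were checked against their labels first. Dstn was at 12.58, 12.55 and 12.59 on the WT arrays, at 5.55, 5.80 and 5.54 on the mutant arrays and at 5.61, 5.62 and 5.63 on the rescued arrays. It was at least 123-fold lower in the mutant (log2 difference −6.95, SE 0.08, adjusted p = 5.70e-11). Srf was at 9.23, 8.98 and 9.17 in WT, at 10.77, 10.72 and 10.55 in the mutant and at 9.14, 9.45 and 8.45 in the rescued corneas, so that it was higher in the mutant than in both other groups (adjusted p = 3.44e-04 against WT and 8.41e-04 against rescued). The array medians were 6.75 to 6.78. Markers of corneal epithelium had a mean log2 level of 13.11 to 13.15 in WT, up to 13.10 in the mutant and 13.27 to 13.31 in the rescued pools, a mean over genes that moved in opposite directions. All 4 measured were called between mutant and WT: Krt12 (−0.42), Pax6 (−0.68) and Aldh3a1 (−0.47) were lower, and Krt14, a keratin gene of basal cells, was higher (1.22). Keratocyte markers were at 11.50 to 11.90, 11.52 to 11.76 and 11.64 to 11.74, with 2 of 5 lower in the mutant. Markers of other cell types moved with the groups too, where 15.1% of all genes were higher and 16.5% lower in the mutant. All 6 measured macrophage and leukocyte markers were higher in the mutant (mean level 7.24 to 7.41 in WT, 8.55 to 8.99 in the mutant, 8.18 to 8.54 in rescued pools), as were 4 of 5 blood endothelial markers, with 1 lower (6.46 to 6.67, 8.34 to 8.94 and 7.88 to 8.22), and all 4 conjunctival markers (8.71 to 9.01, 10.45 to 10.61 and 9.82 to 10.37). Lens markers were lower in the mutant for 5 of 8 (8.99 to 9.37, 7.92 to 8.72 and 7.77 to 8.13), and all 4 corneal endothelial markers were lower (10.41 to 10.47, 9.87 to 10.07 and 10.15 to 10.25). The 5 liver markers had mean levels of 6.23 to 6.36 in WT, 6.16 to 6.23 in the mutant and 6.22 to 6.23 in the rescued pools. Of these, Ttr (WT mean 7.99) and Apoa1 (7.11) lay above the median of all probe sets, and Ttr was lower in the mutant (−0.59, adjusted p = 0.0126), while Alb was at 5.38 in WT and differed by 0.02. The part of the other cell types in the P450 results was not tested. In whole corneas, fewer cells of a type and less RNA per cell cannot be told apart.

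In WT corneas, 30 of the 97 P450 genes (30.9%) had a mean above the median of all probe sets, against 12563 of the 22180 genes measured (56.6%). They were Cyp4a12a, Cyp4a12b, Cyp4f13, Cyp4f15, Cyp4f16, Cyp4f17, Cyp4f39, Cyp4v3 and Cyp4x1 of family 4, and Cyp2a12, Cyp2a22, Cyp2b19, Cyp2c55, Cyp2d22, Cyp2d37-ps, Cyp2f2, Cyp2j6, Cyp2j9, Cyp2r1, Cyp2s1 and Cyp2w1 of family 2. The others were Cyp3a13, Cyp7b1, Cyp17a1, Cyp20a1, Cyp24a1, Cyp26b1, Cyp27a1, Cyp39a1 and Cyp46a1. The large drug-metabolising subfamilies were mostly below the mark: it was passed by 1 of 15 Cyp2c genes, 1 of 7 Cyp3a genes and 2 of 10 Cyp2d genes, against 5 of 10 Cyp4f genes. In the mutant 23 genes lay above the mark, in the rescued corneas 30, and 64 lay above it in no group. Counts over all genes were made for WT alone, so these do not set the family apart. The 30 in rescued corneas are not the same genes as in WT. Cyp4f15 (rescued mean 6.58), Cyp2w1 (6.76) and Cyp4x1 had left the set, and Cyp4b1 (7.01), Cyp2u1 (6.92) and Cyp2d40 (6.82) had joined it. Of the WT set, 8 fell below the mark in the mutant, and Cyp4b1 alone lay above it in the mutant and not in WT. Among those 8, Cyp4x1 (6.78 in WT, 6.75 in the mutant), Cyp4f16 (6.78 and 6.61) and Cyp2d37-ps (6.90 and 6.76) were not called. Nearest to the mark, Cyp4x1 and Cyp4f16 had WT means of 6.78, just above it, and Cyp2u1 had 6.76, just below.

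Between mutant and WT, 20 P450 genes fell and 5 rose in the mutant, and 72 were not called. The lower genes were 20.6% of the family, against 16.5% of all genes tested, and the higher genes 5.15%, against 15.1%. Among the 29 P450 genes whose mean over all 9 arrays passed the median, 18 (62.1%) were lower, against 24.4% of all genes past that mark, and 4 (13.8%) were higher, against 21.9%. The arrays that set this mark are those compared, so a gene can pass through its WT level alone and then count as lower. Cyp2w1 did so, with means of 6.98 in WT, 6.66 in the mutant and 6.76 in rescued corneas. Shares past the mark, here and in the other comparisons, describe the genes and are not a test. The median log2 difference of those 29 genes was −0.40, beside −0.02 for all genes past the mark. Over the whole family it was −0.10, beside −0.02 for all genes.

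Between rescued and mutant, 14 P450 genes (14.4%) were higher and 2 (2.06%) were lower in the rescued corneas, against 6.46% and 6.88% of all genes. Among the 29 genes past the median, 12 (41.4%) were higher, against 10.3% of all genes past it, and 2 (6.90%) were lower, against 10.5%. The number called fell from 16 to 10 without rescued replicate 3, where the number over all genes fell from 2959 to 1808. Between rescued and WT, 14 genes (14.4%) were lower and 3 (3.09%) were higher in the rescued corneas, against 7.43% and 6.28% of all genes. Past the median, 11 (37.9%) were lower, against 11.1%, and 2 (6.90%) higher, against 9.50%. The median rescued minus mutant difference was 0.07 over the 97 genes, beside 0.00 for all genes, and 0.29 over the 29, beside −0.01 for all genes past the mark. For rescued minus WT it was −0.02 over the 97, beside −0.01 for all genes, and −0.11 over the 29, beside −0.02. The 3 comparisons share their arrays, so they are not independent of each other. In at least 1 comparison 28 P450 genes were called, in all 3 comparisons 10, and in none 69. The same counts were not made over all genes, so these do not set the family apart from other genes.

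**Figure D1:**
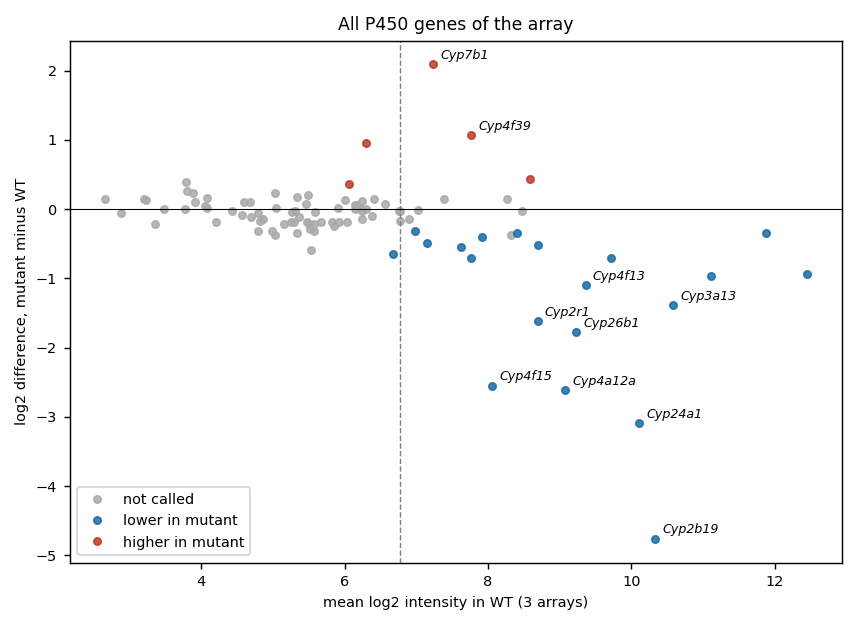
Each point is 1 of the 97 P450 genes, with its mean log2 intensity over the 3 WT arrays on the horizontal axis and the log2 difference between mutant and WT on the vertical axis, and the dashed line is the median of all probe sets (6.77). Called genes in blue (20 lower) and red (5 higher) lie mostly to the right of the line, with Cyp2b19 lowest at −4.76 and Cyp7b1 highest at 2.09.

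Cyp2b19 encodes an arachidonic acid epoxygenase of differentiating keratinocytes. It was at 10.02, 9.61 and 11.36 on the WT arrays, at 5.53, 5.79 and 5.40 on the mutant arrays and at 7.39, 8.48 and 7.36 on the rescued arrays. Every mutant array lay below every rescued array, and every rescued array below every WT array. The gene was at least 27.1-fold lower in the mutant than in WT (log2 difference −4.76, SE 0.43, adjusted p = 2.70e-05). In the rescued corneas it was at least 4.50-fold higher than in the mutant (2.17, SE 0.43, adjusted p = 0.00909). It remained 6.02-fold below WT (−2.59, SE 0.43, adjusted p = 0.00396). Its spread was wide: the SD over the WT pools was 0.91, and only 7 of 22180 genes had a larger WT SD. Over the rescued pools the SD was 0.63, and 97 genes had a larger one. Leaving out any 1 array moved the mutant minus WT difference between −5.12 and −4.25. Markers of the cornifying suprabasal epithelium went in both directions: 4 of 8 were lower and 2 higher in the mutant, beside 16.5% and 15.1% of all genes. Their mean levels were 8.29 to 8.34 in WT, 7.72 to 7.79 in the mutant and 7.78 to 7.99 in rescued pools. Lower in the mutant were Krt10, a keratin gene of cornifying epidermis (−3.33), Dsg1a, the gene for a suprabasal desmoglein (−2.35), Krt1 (−0.36) and Ivl (−0.31). Higher were Sbsn (1.09) and Krtdap (0.35), and Lor (0.17) and Flg (0.27) were not called. Their part in the Cyp2b19 result was not tested.

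Cyp2b19 lies on chromosome 7 inside a run of Cyp2 genes, which in the GRCm38.p6 order are Cyp2s1, Cyp2b10, Cyp2b13, Cyp2b9, Cyp2a4, Cyp2b23, Cyp2b19, Cyp2g1, Cyp2a5, Cyp2a22, Cyp2a12, Cyp2f2 and Cyp2t4. The other 4 Cyp2b genes, given here after their values were seen, were below the median in every group and were not called. Their log2 differences between mutant and WT were 0.02 for Cyp2b10, −0.04 for Cyp2b13, 0.17 for Cyp2b9 and 0.10 for Cyp2b23. Cyp2g1, the next gene after Cyp2b19, differed by −0.17 and was not called either. Within this run Cyp2s1, Cyp2a12 and Cyp2f2 were called lower, with differences of −0.71, −0.49 and −0.35.

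The bases before the start of Cyp2b19, the P450 gene with the largest fall, are printed first. Those of Cyp4f15 and Cyp4f39 follow, because these genes share a cluster and differed from WT in opposite directions. All 3 come from RefSeq (GRCm38.p6), are on the plus strand and run 5′ to 3′ over the 250 bases before the start. Capitals mark a stretch that differs at 1 position from the CArG box, the sequence bound by serum response factor.
Cyp2b19, chr7:26756892-26757141: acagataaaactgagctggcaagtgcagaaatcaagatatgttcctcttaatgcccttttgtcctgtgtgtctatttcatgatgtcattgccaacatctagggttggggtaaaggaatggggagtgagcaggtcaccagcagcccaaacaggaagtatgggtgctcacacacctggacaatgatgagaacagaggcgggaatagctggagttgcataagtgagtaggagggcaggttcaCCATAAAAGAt
Cyp4f15, chr17:32685409-32685658: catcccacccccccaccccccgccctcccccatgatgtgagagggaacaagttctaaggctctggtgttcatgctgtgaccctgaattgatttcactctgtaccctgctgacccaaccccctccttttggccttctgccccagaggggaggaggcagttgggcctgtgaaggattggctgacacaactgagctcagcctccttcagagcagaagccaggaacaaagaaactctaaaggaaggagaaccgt
Cyp4f39, chr17:32452473-32452722: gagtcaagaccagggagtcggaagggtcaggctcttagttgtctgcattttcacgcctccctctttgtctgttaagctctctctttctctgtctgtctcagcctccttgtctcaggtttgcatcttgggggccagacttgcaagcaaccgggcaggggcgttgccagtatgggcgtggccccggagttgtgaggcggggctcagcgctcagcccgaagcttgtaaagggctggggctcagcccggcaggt

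The RefSeq table had a window of 250 bases before to 50 bases after the start for 71 of the 97 P450 genes, 79 windows in all. Both strands of these windows were searched for the CArG box, the AP-1 motif TGANTCA, the TATA box TATAAA, the PAR bZip motif TTANGTAA and the E-box CACGTG. None of the 5 motifs was found in the windows of Cyp2b19, Cyp4f15 or Cyp4f39. Among all 79 P450 windows, the CArG box was found in 1 (Cyp1a1), beside 1.63% of all 32851 windows in the table. It begins 32 bases before the start and spans the TATAAA that begins at 30. TGANTCA was in 6 windows, those of Cyp2c70, Cyp3a13, Cyp4a29, Cyp4b1, Cyp4f16 and Cyp4f37 (7.81% of all windows), and TATAAA in 28 of the 79 (13.6% of all windows). TTANGTAA was in 1, of Cyp2c38 (2.32%), and CACGTG in 2, of Cyp2j6 and Cyp4v3 (7.15%). The search with 1 mismatch, chosen after the Cyp2b19 sequence was read, found a stretch in 35 of the 79 P450 windows and in 19.9% of all windows. Some of these stretches span a TATAAA, as in Cyp8b1, where the stretch begins 33 and the TATAAA 31 bases before the start. That of Cyp2b19 begins 11 bases before the start. A match describes the letters and not a site of binding.

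**Figure D2:**
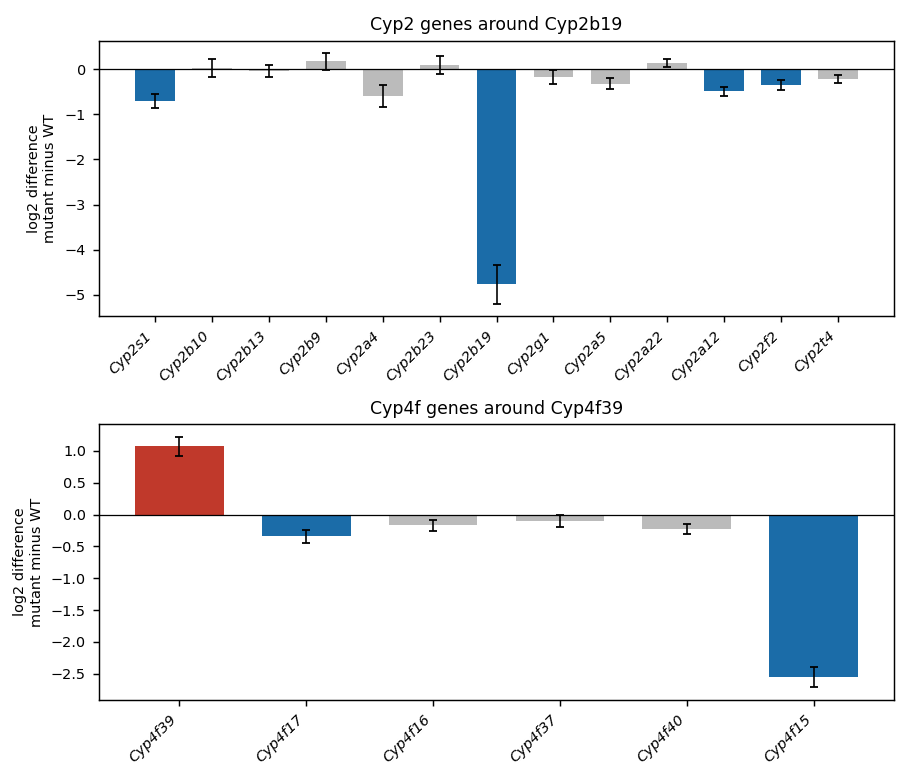
Bars give the log2 difference between mutant and WT for the Cyp2 genes around Cyp2b19 (upper panel) and the Cyp4f genes around Cyp4f39 (lower panel) in genome order, with 1 SE from limma, in blue if called lower, red if called higher and grey if not called. Cyp2b19 (−4.76) stands among neighbours between −0.71 and 0.17, and Cyp4f39 (1.07) and Cyp4f15 (−2.55) stand at the ends of the Cyp4f run.

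Of the 3 genes of vitamin D metabolism, 2 were lower in the mutant than in WT, beside 16.5% of all genes. The same 2 were higher in rescued than in mutant corneas (beside 6.46%) and lower in rescued corneas than in WT (beside 7.43%). Cyp2r1 makes the first activating hydroxylation of vitamin D, Cyp27b1 the second, and Cyp24a1 inactivates the active hormone. Cyp24a1 was at 10.13, 10.04 and 10.15 in WT, at 6.74, 7.26 and 7.04 in the mutant and at 9.13, 8.33 and 8.58 in the rescued corneas. It was 8.52-fold lower in the mutant than in WT (log2 difference −3.09, SE 0.19, adjusted p = 2.91e-06), 3.17-fold higher in rescued than in mutant corneas (1.66, SE 0.19, adjusted p = 5.17e-04), and still 2.69-fold below WT (−1.43, SE 0.19, adjusted p = 0.00135). The 3 groups did not overlap on any array. Cyp2r1 was at 8.85, 8.55 and 8.67 in WT, at 6.96, 7.01 and 7.24 in the mutant and at 7.73, 7.43 and 7.97 in the rescued corneas, again without overlap. It was 3.07-fold lower in the mutant (−1.62, SE 0.14, adjusted p = 2.00e-05). The rescued pools were 1.56-fold above the mutant (0.64, SE 0.14, adjusted p = 0.014; adjusted p = 0.0569 without mutant replicate 1) and 1.97-fold below WT (−0.98, SE 0.14, adjusted p = 0.00184). Cyp27b1, named after its values were seen, was below the median in every group, with a WT mean of 6.01 and a mutant minus WT difference of 0.13 (SE 0.09, adjusted p = 0.349). Vdr, the gene for the vitamin D receptor, was called lower in the mutant than in WT (−0.28, adjusted p = 0.0375). It was also lower in rescued corneas than in WT (−0.32, adjusted p = 0.0439), and rescued and mutant differed by −0.04 (adjusted p = 0.848).

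Of the 3 genes that clear retinoic acid, 2 were lower in the mutant and also in the rescued corneas, each against WT (beside 16.5% and 7.43% of all genes), and none was called between rescued and mutant. Cyp26b1, the only one of them above the median, was at 9.18, 9.03 and 9.49 in WT, at 7.54, 7.33 and 7.49 in the mutant and at 7.95, 7.96 and 7.64 in the rescued corneas. It was 3.44-fold lower in the mutant (−1.78, SE 0.13, adjusted p = 7.98e-06) and 2.61-fold lower in rescued corneas (−1.38, SE 0.13, adjusted p = 2.22e-04) than in WT. All rescued arrays lay above all mutant arrays, but the difference of 0.40 (SE 0.13) missed the threshold (adjusted p = 0.0755). Cyp26a1 lay below the median in every group, at 6.87, 6.58 and 6.58 in WT, 6.03, 6.10 and 5.95 in the mutant and 6.0, 6.15 and 5.63 in rescued corneas. It was called lower against WT in the mutant (−0.65, SE 0.13, adjusted p = 0.004) and in rescued corneas (−0.75, SE 0.13, adjusted p = 0.00539). Cyp26c1, added after its value was seen, had a mutant minus WT difference of 0.00 (95% interval −0.22 to 0.23).

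Family 4 had 20 genes, 9 of them above the median in WT. Between mutant and WT, 6 fell and 2 rose, where 16.5% of all genes fell and 15.1% rose. Cyp4a12a and Cyp4a12b encode hydroxylases of arachidonic and other fatty acids and are near-identical neighbours, so their probe sets may share signal and how each gene contributed is uncertain. The Cyp4a12a probe set was at 9.08, 8.92 and 9.19 in WT, at 6.64, 6.40 and 6.32 in the mutant and at 6.64, 7.10 and 7.15 in rescued corneas. It was at least 6.11-fold lower in the mutant (−2.61, SE 0.14, adjusted p = 1.63e-06) and 4.29-fold lower in the rescued corneas (−2.10, SE 0.14, adjusted p = 3.59e-05) than in WT. Mutant and rescued arrays overlapped for Cyp4a12a. The difference of 0.51 was called (SE 0.14, adjusted p = 0.0434), but 14 of 21 alternatives lost the call, among them quantile normalisation, centring and 7 that leave out 1 array (mutant replicate 2 or 3, rescued replicate 2 or 3, or any WT replicate), with an adjusted p of up to 0.148. The Cyp4a12b probe set was at 12.44, 12.48 and 12.43 in WT, at 11.45, 11.61 and 11.50 in the mutant and at 12.12, 12.21 and 12.27 in the rescued corneas, without overlap between groups. It was 1.91-fold lower in the mutant (−0.93, SE 0.07, adjusted p = 7.39e-06), 1.6-fold higher in rescued than in mutant corneas (0.68, adjusted p = 2.36e-04), and 1.19-fold below WT in rescued corneas (−0.25, adjusted p = 0.0369). The last call was lost in 8 of 21 alternatives (adjusted p up to 0.12), 6 of them by leaving out mutant replicate 3, rescued replicate 1 or 2, or any WT replicate.

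The Cyp4f genes, whose products hydroxylate leukotrienes and long fatty acids, differed from each other in direction. Cyp4f15 was at 7.89, 8.30 and 8.01 in WT, at 5.49, 5.85 and 5.21 in the mutant and at 6.69, 6.51 and 6.55 in rescued corneas, so the groups were apart. Against WT it was at least 5.84-fold lower in the mutant (−2.55, SE 0.16, adjusted p = 2.96e-06). For rescued corneas the fall was at least 2.79-fold (−1.48, SE 0.16, adjusted p = 4.05e-04). Rescued minus mutant was 1.07 (SE 0.16, adjusted p = 0.00194), with both means below the median. Cyp4f13, at 9.26, 9.37 and 9.44 in WT, 8.24, 8.41 and 8.12 in the mutant and 8.89, 8.78 and 8.83 in rescued corneas, had the same order of groups. It was 2.15-fold lower in the mutant (−1.10, SE 0.08, adjusted p = 1.10e-05), 1.5-fold higher in rescued than in mutant corneas (0.58, adjusted p = 0.00187) and 1.43-fold below WT in rescued corneas (−0.52, adjusted p = 0.00373).

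Cyp4f39 is the mouse counterpart of a human gene whose enzyme hydroxylates very long fatty acids for the acylceramides of the skin barrier. It was at 7.90, 7.88 and 7.50 in WT, at 8.83, 8.75 and 8.92 in the mutant and at 7.35, 7.94 and 7.68 in rescued corneas. The mutant arrays lay above all others, and WT and rescued arrays overlapped. Cyp4f39 was 2.1-fold higher in the mutant than in WT (1.07, SE 0.15, adjusted p = 4.67e-04). It was 2.26-fold lower in rescued than in mutant corneas (−1.18, SE 0.15, adjusted p = 9.60e-04), and rescued and WT differed by −0.11 (adjusted p = 0.726). Cyp4f17, its next neighbour, was at 8.56, 8.33 and 8.31 in WT and at 7.93, 8.02 and 8.22 in the mutant, where it was 1.27-fold lower (−0.34, SE 0.10, adjusted p = 0.0236). That call was lost without mutant replicate 1, mutant replicate 2 or WT replicate 1, and with the mean level of Y-linked genes as a covariate (adjusted p up to 0.0876). Between Cyp4f17 and Cyp4f15 in the cluster, Cyp4f16, Cyp4f37 and Cyp4f40 had differences of −0.17, −0.10 and −0.22 and were not called.

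Cyp4b1, studied in the corneal epithelium of other species for its inflammatory and angiogenic eicosanoids, was at 6.08, 6.55 and 6.28 in WT, at 7.24, 7.17 and 7.34 in the mutant and at 6.81, 7.27 and 6.95 in rescued corneas. WT arrays lay below all others, and mutant and rescued arrays overlapped. It was at least 1.93-fold higher in mutant (0.95, SE 0.14, adjusted p = 5.75e-04) and at least 1.64-fold higher in rescued corneas (0.71, SE 0.14, adjusted p = 0.00915) than in WT. Rescued minus mutant was −0.24, with a 95% interval of −0.55 to 0.07 (adjusted p = 0.316). Cyp4v3, whose human counterpart is mutated in Bietti crystalline dystrophy of retina and cornea, was at 7.93, 7.71 and 8.07 in WT, 7.63, 7.40 and 7.47 in the mutant and 7.87, 7.79 and 7.90 in rescued corneas. It was 1.32-fold lower in the mutant than in WT (−0.40, adjusted p = 0.0106). The rescued minus mutant difference of 0.35 (SE 0.10, adjusted p = 0.0439) was lost under quantile normalisation, under centring and without any of 6 single arrays (mutant replicates 2 and 3, all rescued replicates and WT replicate 1), with an adjusted p of up to 0.132. Besides Cyp4b1 and Cyp4f39, the 4 conjunctival markers, the 6 leukocyte markers and 4 of 5 vessel markers were higher in the mutant than in WT, while the vessel marker Kdr was lower (−0.59, adjusted p = 0.0133). Their part in these results was not tested.

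**Figure D3:**
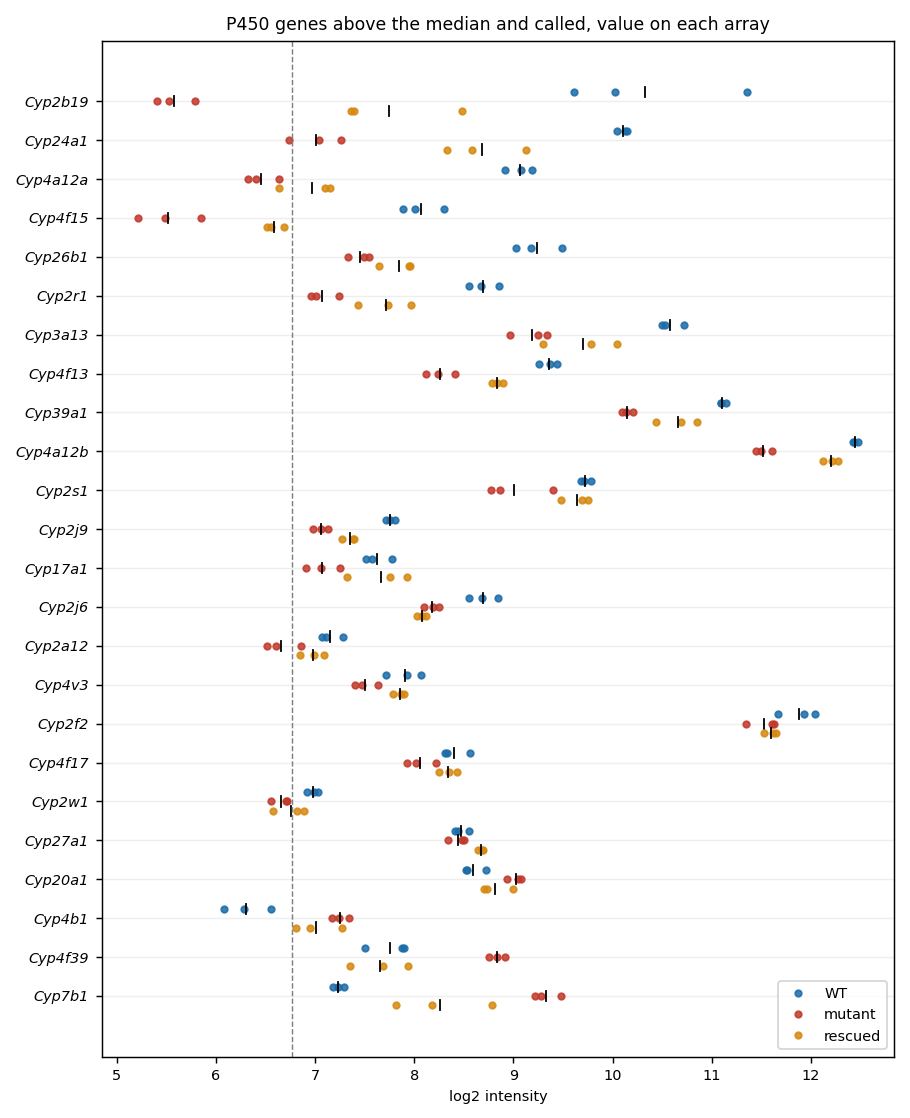
Each row is 1 P450 gene above the median of all probe sets (dashed line, 6.77) in some group and called in some comparison, each point is the log2 intensity of 1 array, and the black tick is the mean of the group's 3 arrays. The mutant points of Cyp2b19, Cyp24a1 and Cyp4f15 lie to the left of the rescued and WT points, and those of Cyp4f39 and Cyp7b1 to the right.

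Sterol and steroid genes moved in both directions. Cyp7b1, an oxysterol hydroxylase, had the largest rise of the family. It was at 7.29, 7.18 and 7.23 in WT, at 9.22, 9.28 and 9.48 in the mutant and at 8.78, 8.18 and 7.82 in rescued corneas, and the groups did not overlap. The gene was 4.27-fold higher in the mutant (2.09, SE 0.20, adjusted p = 3.40e-05), 2.1-fold lower in rescued than in mutant corneas (−1.07, SE 0.20, adjusted p = 0.00636) and 2.03-fold higher in rescued than in WT corneas (1.02, SE 0.20, adjusted p = 0.00815). Cyp39a1, another oxysterol hydroxylase, went the other way, with 11.14, 11.09 and 11.09 in WT, 10.14, 10.10 and 10.21 in the mutant and 10.69, 10.44 and 10.85 in rescued corneas. It was 1.94-fold lower in the mutant (−0.96, SE 0.10, adjusted p = 5.77e-05) and 1.42-fold higher in rescued than in mutant corneas (0.51, adjusted p = 0.00804). Against WT it was 1.37-fold lower in rescued corneas (−0.45, adjusted p = 0.0144), and without WT replicate 1 this missed the threshold (adjusted p = 0.0509). Cyp27a1, a sterol hydroxylase of mitochondria, differed by −0.03 between mutant and WT (adjusted p = 0.759). Its rescued minus mutant difference of 0.24 (adjusted p = 0.0458) was lost in 14 of 21 alternatives, both scalings and any 1 of 8 left-out arrays (all but WT replicate 3) among them, with an adjusted p of up to 0.126. Cyp46a1, which hydroxylates cholesterol in the brain, differed by −0.01 between mutant and WT (95% interval −0.18 to 0.16).

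Of 5 genes of steroid hormone synthesis, Cyp17a1 alone lay above the median in WT. It was at 7.78, 7.51 and 7.57 in WT, 7.25, 7.06 and 6.91 in the mutant and 7.75, 7.32 and 7.93 in rescued corneas. Cyp17a1 was 1.46-fold lower in the mutant than in WT (−0.54, SE 0.15, adjusted p = 0.0215) and 1.51-fold higher in rescued than in mutant corneas (0.59, SE 0.15, adjusted p = 0.032). The former call was lost without mutant replicate 2, mutant replicate 3 or WT replicate 1. It was also lost with the mean level of Y-linked genes as a covariate, where the adjusted p was highest (0.0877). The latter was lost without mutant replicate 2 or 3 or rescued replicate 1 or 3 (adjusted p up to 0.111). Cyp11a1, the side-chain cleavage enzyme that starts steroid synthesis, was called higher in the mutant (0.36, SE 0.08, adjusted p = 0.00546) at levels below the median, at 5.98, 6.10 and 6.10 in WT and 6.56, 6.28 and 6.44 in the mutant. Its other probe set had a difference of 0.16 and was not called (adjusted p = 0.232 in a fit over all probe sets).

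Among 49 genes of family 2, 11 were above the median in WT by the grouping used here, which counts Cyp2r1 with the vitamin D genes, and 7 were lower and none higher in the mutant, beside 16.5% lower and 15.1% higher among all genes. Of the epoxygenase genes beside Cyp2b19, Cyp2j6 was at 8.68, 8.55 and 8.84 in WT, 8.10, 8.25 and 8.19 in the mutant and 8.12, 8.03 and 8.08 in rescued corneas. Cyp2j6 was 1.43-fold lower in the mutant (−0.51, SE 0.08, adjusted p = 0.00103) and 1.53-fold lower in rescued corneas (−0.61, SE 0.08, adjusted p = 0.00141) than in WT, while rescued and mutant differed by −0.10 (adjusted p = 0.494). Cyp2j9, at 7.75, 7.71 and 7.81 in WT, 6.98, 7.06 and 7.13 in the mutant and 7.38, 7.27 and 7.39 in rescued corneas, had the rescued arrays between the other groups. It was 1.62-fold lower in the mutant (−0.70, SE 0.07, adjusted p = 3.54e-05) and 1.33-fold lower in rescued corneas (−0.41, adjusted p = 0.00358) than in WT. Rescued corneas were 1.22-fold above the mutant for Cyp2j9 (0.29, adjusted p = 0.0177), a call lost without mutant replicate 1 or rescued replicate 1 or 3 (adjusted p up to 0.0719).

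Cyp2s1, a P450 of epithelia outside the liver, was at 9.71, 9.78 and 9.68 in WT, 8.86, 9.40 and 8.77 in the mutant and 9.69, 9.48 and 9.75 in rescued corneas. It was 1.64-fold lower in the mutant than in WT (−0.71, SE 0.15, adjusted p = 0.00467) and 1.55-fold higher in rescued than in mutant corneas (0.63, adjusted p = 0.0209), and rescued and WT arrays overlapped (−0.08, adjusted p = 0.802). The rescued minus mutant call was lost without mutant replicate 1 or 3 or rescued replicate 1 or 3 (adjusted p up to 0.0794). Cyp2f2, known from the club cells of the lung, was at 11.93, 12.04 and 11.67 in WT and 11.63, 11.35 and 11.61 in the mutant. The difference of −0.35 (SE 0.11, adjusted p = 0.0328) was lost in 7 of 21 alternatives (adjusted p up to 0.118), among them the replicate block and leaving out mutant replicate 2, WT replicate 1 or WT replicate 2. It also missed the threshold when adjusted over all probe sets (adjusted p = 0.0625). Smaller falls in the mutant were called for Cyp2a12, at least 1.41-fold (−0.49, adjusted p = 0.00514), and Cyp2w1, at least 1.25-fold (−0.32, adjusted p = 0.0235). The latter was lost without mutant replicate 2, WT replicate 1 or WT replicate 2 (adjusted p up to 0.0824). Among the uncalled genes above the median, Cyp2d22 differed by −0.37 between mutant and WT (95% interval −0.68 to −0.06, adjusted p = 0.0686), Cyp2c55 by 0.15 (−0.08 to 0.39), Cyp2a22 by 0.14 (−0.06 to 0.34) and Cyp2d37-ps by −0.14 (−0.39 to 0.11).

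Cyp3a13, of the subfamily that handles most drugs in liver and gut, was at 10.50, 10.53 and 10.72 in WT, 8.97, 9.25 and 9.34 in the mutant and 10.04, 9.30 and 9.78 in rescued corneas. It was 2.63-fold lower in the mutant (−1.39, SE 0.17, adjusted p = 1.93e-04) and 1.83-fold lower in rescued corneas (−0.87, adjusted p = 0.00927) than in WT. Mutant and rescued arrays overlapped, and their difference of 0.52 missed the threshold (adjusted p = 0.0793). The other 6 Cyp3a genes were below the median in all groups. Cyp20a1, whose substrate is not established, was at 8.72, 8.53 and 8.52 in WT, 8.94, 9.08 and 9.05 in the mutant and 8.70, 9.0 and 8.73 in rescued corneas, and was 1.35-fold higher in the mutant than in WT (0.43, SE 0.09, adjusted p = 0.00639). The 3 family 1 genes, inducible through the aryl hydrocarbon receptor and named here after their values were seen, were below the median in every group and not called. Between mutant and WT, Cyp1a1 differed by −0.03, Cyp1a2 by 0.06 and Cyp1b1, a gene mutated in congenital glaucoma, by 0.06.

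**Figure D4:**
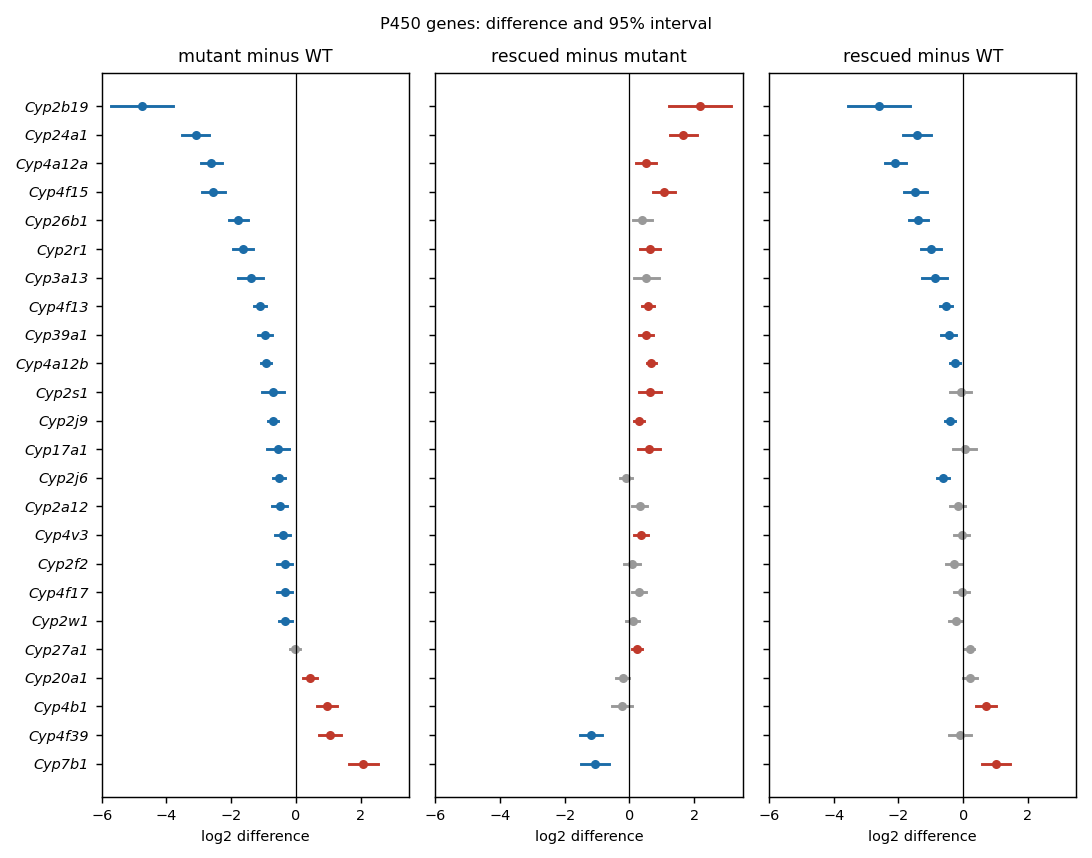
Points give the log2 difference of each called P450 gene above the median in mutant minus WT, rescued minus mutant and rescued minus WT, with the 95% interval from limma, in blue if called lower, red if called higher and grey if not called. Cyp2b19 has the widest intervals, at −4.76, 2.17 and −2.59, and Cyp26b1 and Cyp3a13 are called against WT but not between rescued and mutant.

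Genes that work with P450 enzymes were taken from lists. Of 5 measured genes of epoxide hydrolases and arachidonate release, 3 were lower and none higher in the mutant than in WT, beside 16.5% and 15.1% of all genes. Between rescued and mutant, 3 were higher and none lower, beside 6.46% and 6.88% of all genes. Against WT, 2 were lower in rescued corneas, beside 7.43% of all genes. Ephx2, the gene for soluble epoxide hydrolase, which turns P450 epoxides of arachidonic acid into diols, was at 10.24, 10.28 and 9.99 in WT, 8.74, 8.69 and 8.61 in the mutant and 9.67, 9.75 and 9.97 in rescued corneas. It was 2.81-fold lower in the mutant (−1.49, SE 0.10, adjusted p = 5.03e-06) and 2.17-fold higher in rescued than in mutant corneas (1.12, adjusted p = 1.56e-04). Against WT it was 1.30-fold lower in rescued corneas (−0.38, adjusted p = 0.0363), a call lost in 9 of 21 alternatives, 6 of them without mutant replicate 2 or 3, rescued replicate 1 or 2, or WT replicate 1 or 2 (adjusted p up to 0.12). Ephx3, which encodes an epoxide hydrolase of the epidermis, was 2.05-fold lower in the mutant (−1.03, SE 0.08, adjusted p = 1.13e-05) and 2.05-fold higher in rescued than in mutant corneas (1.03, adjusted p = 6.47e-05), with 0.00 between rescued and WT (adjusted p = 0.992). Ephx1, the gene for the microsomal enzyme, was 2.00-fold lower in the mutant (−1.0, adjusted p = 8.60e-05) and 1.52-fold higher in rescued than in mutant corneas (0.61, adjusted p = 0.00557). It too was lower in rescued corneas than in WT (−0.39, 1.31-fold, adjusted p = 0.0403), a call lost in 10 of 21 alternatives, 6 of them without mutant replicate 1, rescued replicate 1 or 2, or any WT replicate (adjusted p up to 0.116). Over the list the median log2 difference between mutant and WT was −1.0, beside −0.02 for all genes.

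Among 11 measured genes of haem synthesis and breakdown, 5 were lower and 2 higher in the mutant, beside 16.5% and 15.1% of all genes. Alad, whose enzyme makes the first pyrrole of haem, was at 11.61, 11.61 and 11.57 in WT, 10.56, 10.69 and 10.44 in the mutant and 11.22, 11.11 and 11.18 in rescued corneas. It was 2.05-fold lower in the mutant (−1.03, SE 0.07, adjusted p = 6.62e-06) and 1.52-fold higher in rescued than in mutant corneas (0.60, adjusted p = 7.03e-04). Fech, the gene for the enzyme that inserts iron into haem, was 1.40-fold lower in the mutant (−0.49, adjusted p = 1.46e-04), and Urod 1.28-fold (−0.35, adjusted p = 0.00854). Alas1, the gene for the first enzyme of the pathway, was 1.40-fold higher in the mutant (0.48, adjusted p = 6.18e-04). Hmox1, whose enzyme breaks haem down, was at 6.33, 5.70 and 6.51 in WT, 7.76, 7.41 and 7.67 in the mutant and 6.86, 6.96 and 6.82 in rescued corneas. It was at least 2.70-fold higher in the mutant than in WT (1.43, SE 0.18, adjusted p = 2.39e-04). Of 9 listed electron donor genes 6 were measured, and Por, the gene for the P450 reductase, Fdxr and Fdx1l were not matched. Of the 6 only Pgrmc1, whose product binds haem and P450 enzymes, was called (−0.23 in mutant minus WT, adjusted p = 0.029). This was lost in 6 of 21 alternatives, among them leaving out mutant replicate 2 or 3 or WT replicate 2 or 3. The adjusted p was highest (0.109) with the mean level of Y-linked genes as a covariate. Of 3 P450 genes whose symbols fall outside the naming rule, Ptgis, for prostacyclin synthase, was 1.30-fold lower in the mutant (−0.38, adjusted p = 0.00486).

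Of 18 measured genes of transcription factors known to act on P450 genes, 6 fell and 1 rose in the mutant against WT, beside 16.5% and 15.1% of all genes, and the median difference of −0.05 was near that of all genes. The PAR bZip factor genes Hlf, Dbp and Tef, which carry clock output to P450 genes in the liver, were all lower. Hlf was at 11.51, 11.48 and 11.25 in WT, 9.67, 9.59 and 9.59 in the mutant and 10.55, 10.63 and 10.90 in rescued corneas, with the groups apart. It was 3.48-fold lower in the mutant (−1.80, SE 0.10, adjusted p = 1.99e-06) and 2.11-fold higher in rescued than in mutant corneas (1.08, adjusted p = 1.96e-04). Dbp was 2.36-fold (−1.24, SE 0.17, adjusted p = 3.77e-04) and Tef 2.17-fold lower in the mutant (−1.12, SE 0.15, adjusted p = 3.53e-04). Between rescued and mutant neither was called (0.37 for Dbp, adjusted p = 0.205, with overlapping arrays, and 0.38 for Tef, adjusted p = 0.139). All 3 were lower in rescued corneas than in WT, by −0.72 for Hlf (adjusted p = 0.00186), −0.88 for Dbp (adjusted p = 0.00868) and −0.74 for Tef (adjusted p = 0.0112). The labels give no hour of collection. Ppara, for a fatty acid receptor that drives Cyp4a genes in the liver, was 1.49-fold lower (−0.57, adjusted p = 1.60e-04), and Rarg, for a retinoic acid receptor of epithelia, 1.40-fold lower (−0.48, adjusted p = 5.98e-04). Ahr, for the aryl hydrocarbon receptor, was 1.41-fold higher (0.50, SE 0.12, adjusted p = 0.00911).

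**Figure D5:**
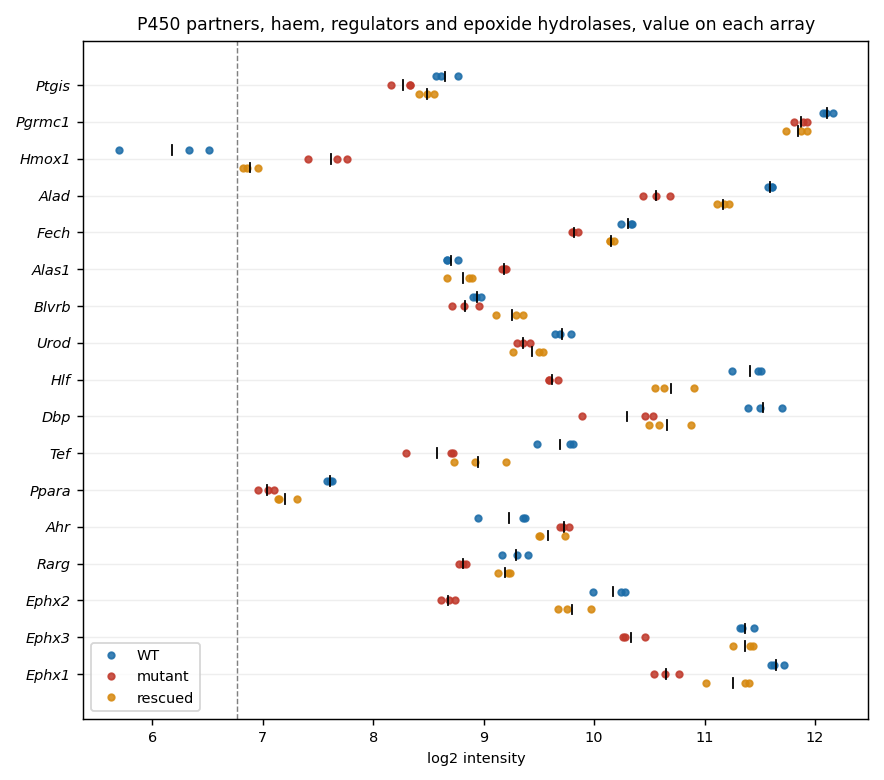
Each row is a called gene of the lists of P450 partners, haem metabolism, transcription factors and epoxide hydrolases, each point is the log2 intensity of 1 array, the black tick is the group mean and the dashed line the median of all probe sets (6.77). The mutant points of Alad, Hlf, Ephx1, Ephx2 and Ephx3 lie to the left of both other groups, and those of Hmox1 to the right.

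Besides Cyp26a1 and Cyp11a1, a pair of genes below the median in every group was called, both in comparisons with rescued corneas. Cyp2c29, a liver epoxygenase gene, was at 4.22, 4.03 and 4.03 in WT and 4.57, 4.62 and 4.50 in rescued corneas (rescued minus WT 0.47, adjusted p = 0.00646), and its other probe set differed by 0.01. Its rescued minus mutant difference of 0.31 (adjusted p = 0.0421) was lost in 13 of 19 alternatives, centring and 7 single left-out arrays (mutant replicates 2 and 3, all rescued replicates, WT replicates 2 and 3) among them, with an adjusted p of up to 0.118. Cyp2a4, for a steroid hydroxylase of the liver, was at 5.51, 5.71 and 5.36 in WT and 4.96, 4.96 and 4.02 in rescued corneas (−0.88, SE 0.24, adjusted p = 0.0401). That call was lost without mutant replicate 3 or any 1 WT replicate, and with the mean level of Y-linked genes as a covariate (adjusted p up to 0.123).

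The pools also differed, within and between groups, in the mean log2 level of 3 Y-linked genes. It was 5.34, 9.77 and 5.15 on the WT arrays, 7.77, 9.77 and 8.41 on the mutant arrays and 7.16, 9.11 and 8.89 on the rescued arrays. WT replicates 1 and 3 thus lay below the median of all probe sets, and every mutant and rescued pool above it. The sex mix of the pools, read from these genes, cannot be fully told apart from the group. With this level as a covariate, 24, 13 and 17 P450 genes were called in mutant minus WT, rescued minus mutant and rescued minus WT, beside 25, 16 and 17 without it. Over all genes the calls went from 7004, 2959 and 3042 to 6140, 2765 and 2185. Among named genes, the mutant minus WT calls of Cyp2f2, Cyp4f17, Cyp17a1 and Pgrmc1 were lost with the covariate. So were the rescued minus mutant calls of Cyp4a12a, Cyp27a1 and Cyp2c29, and the rescued minus WT calls of Cyp2a4, Pgrmc1, Blvrb and Ephx1.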

How the data were processed

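Trizol was used to extract total RNA, and the Ambion WT Expression and Affymetrix WT Terminal Labeling kits to make the labelled target, per the labels' protocols. The values used are the authors' deposited log2 intensities of 41345 probe sets on 9 arrays. Base 2 was inferred from their range (2.14 to 14.32); for the normalisation, its software and the annotation's build nothing is stated: not given in the sources used here. Arrays hold no read depth, and 3 arrays per group limit the precision.

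Genes were named from the platform annotation, for probe sets with exactly 1 symbol. The 3 comparisons were fitted to all 9 arrays with limma 3.58.1 in R 4.3.3 (lmFit, eBayes), adjusted over 22180 genes; the fit was tested on simulated data. Alternatives were quantile normalisation, centring, intensity filters (median, 25th percentile), the mean of all rows, trend, robust, array weights, 6 arrays alone, a Y-linked covariate, the replicate number as a block, stricter thresholds, a single-digit rule and each array left out.

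Named were Cyp2b19, P450 genes above the median in a group and called, the 5 brightest uncalled ones in WT, up to 5 called ones below the median, and up to 6 called genes per list, besides Dstn and Srf. The genes, lists and tests were chosen with earlier results of these data known. Cyp27b1, Cyp26c1, Vdr, the family 1 genes, the other genes of the clusters and the cell type markers fall outside that rule and were named after their values were seen.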

Additional observations from a re-analysis of the deposited data

Results flagged for a closer look

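A probe set annotated to both Cyp4a10 and Cyp4a31 could not be given to 1 gene and so is outside the comparisons. Cyp4a10 and Cyp4a31 belong to the fatty acid hydroxylases. In a fit over all probe sets its mean log2 intensity was 6.38 in WT, 7.43 in the mutant and 6.14 in rescued corneas. Mutant minus WT was 1.05 (adjusted p = 0.00492), rescued minus mutant −1.29 (adjusted p = 0.00563) and rescued minus WT −0.24 (adjusted p = 0.573). It was singled out because it is a signal outside the main measurement that was above the WT level. The probe set that stands for Cyp4a31 alone was below the median in every group and differed by −0.19 between mutant and WT. Of the other 5 probe sets shared by several genes of which at least 1 is a P450 gene, none was called in that fit.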

How the results depend on the processing

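The counts of called P450 genes were 25 (mutant minus WT), 16 (rescued minus mutant) and 17 (rescued minus WT), beside 7004, 2959 and 3042 over all genes. At an adjusted p under 0.01 the middle count was 8, beside 1420 over all genes. With a 2-fold minimum the counts were 10, 5 and 6, beside 1116, 312 and 372. Leaving out 1 array gave 22 to 28, 10 to 15 and 14 to 18, beside 5912 to 6947, 1808 to 2795 and 1812 to 2975 over all genes. Quantile normalisation gave 25, 13 and 17, beside 7070, 3075 and 3062, and centring 25, 12 and 17, beside 6993, 3018 and 2996. The median of all genes moved by at most 0.02 under either scaling. Above the median in WT were 30 genes, 28 to 31 without 1 WT array, and 14 lay above the 75th percentile (8.47). The replicate number as a block gave 26, 14 and 17 calls, beside 6687, 2507 and 2656 over all genes. Over all genes, arrays with the same number did not deviate together (r from −0.02 to 0.06 over 9 pairs). Only 2 arrays correlated best with their own number. The mean level of Y-linked genes was highest in replicate 2 of every group (9.77 in WT, 9.77 in the mutant and 9.11 in rescued pools). These values cannot tell whether pools with the same number were collected or handled together.

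Cyp2b19 kept its direction and its call under all 21 alternatives in each comparison, with leave-one-out ranges of −5.12 to −4.25, 1.81 to 2.36 and −2.96 to −2.08. Of 95 calls of named genes, 70 were kept under every alternative run on single genes, 25 were lost under at least 1, and 0 changed direction. The 2-fold minimum was not applied to single genes. Calls of smaller size, such as those of Cyp2j6 (−0.51) and Cyp20a1 (0.43) in mutant minus WT, therefore count as kept. Signal near background limits the 64 genes below the median in every group. A single-digit reading of the names gave 18, 12 and 13 calls among its 83 genes, beside the same 7004, 2959 and 3042 over all genes.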

Other observations

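Cyp2f2 and Cyp2c55 each have another probe set on the array. In a fit over all probe sets, those of Cyp2f2 differed by −0.35 (adjusted p = 0.0625) and −0.36 (adjusted p = 0.0908) between mutant and WT, at WT means of 11.88 and 7.60. Those of Cyp2c55 differed by 0.15 (adjusted p = 0.399) and −0.26 (adjusted p = 0.191), at WT means of 8.26 and 4.95. Adjusted over the 22180 genes, the Cyp2f2 difference had passed the threshold (adjusted p = 0.0328).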
